A study of Bos taurus with 16 samples.

Results

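The genes described here are the immune surface, major histocompatibility complex (MHC) and cytokine genes on a cattle cDNA array that was used to test whether linear RNA amplification keeps expression ratios. Members were chosen by symbol: bovine MHC genes (BOLA), numbered CD antigens, interleukins, chemokines and their receptors, immunoglobulin heavy chains, interferon-related genes, Toll-like receptors, interferon regulatory factors, complement C1q chains, and LCP1, IKZF3, B2M, PTPRC and LGALS3. The rule matched 206 of 16896 spots. These are 103 of 8448 features, a feature being 1 cDNA clone spotted in duplicate. Of them, 100 features list 1 symbol and stand for 74 genes, and 3 list several symbols and were set aside. A value in every kidney RNA was obtained for 93 features of 70 genes, and these 93 were tested among the 5537 tested features with a listed gene. No feature listed B2M, PTPRC, an ISG symbol or a Toll-like receptor.

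Kidney RNA from cows, isolated with Trizol, was hybridised unamplified (round 0, total RNA) or after linear amplification for 1 round, 2 rounds or 3, each against the same reference RNA amplified 2 rounds. Every round has 2 kidney RNAs, named replicates 1 and K, and every RNA was hybridised in both dye orientations, which gives 16 arrays for 8 RNAs. The labels name neither the animals' age, sex and health nor the tissue of the reference, and they do not say whether 1 and K are separate animals, so p-values measure the spread between these RNAs, which may be technical. With 2 against 2 RNAs an exact permutation test cannot go below 0.333, and all tests below are limma's moderated tests over all 5537 features with Benjamini-Hochberg adjustment and a threshold of 0.05.

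Values are log2 ratios of kidney over reference, centred on each array's median and averaged over duplicate spots and over the dye swap, or taken from 1 orientation where the other gave no value. Where a pair of values is given for a round, replicate 1 comes first and K follows. The direction of the deposited ratio is not stated. It was set so that known kidney genes lie above the reference: 21 features of kidney tubule and podocyte genes had medians between 2.39 and 2.95 in both dye orientations at every round. If the deposited ratios run the other way, every sign below turns. A ratio sets kidney against reference at 1 clone, so ratios of different genes do not rank their abundance, and a clone that neither RNA lights up can also give a ratio near 0. In bulk RNA, fewer cells of a type and less RNA per cell cannot be told apart. Between 83.9% and 95% of spots carried a ratio per array. Across members, described as correlations over features that share an RNA, the replicates of a round correlated at 0.742 to 0.864 and the 2 dye orientations of 1 RNA at 0.473 to 0.71. The 4 round 0 arrays carry 3 decimals in 100% of cells against 83.2% to 88.2% on the 12 amplified arrays, so a difference in processing and the absence of amplification cannot be told apart in any comparison with round 0.

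MHC class I molecules show peptides from inside the cell, and class II molecules show peptides taken up by macrophages, dendritic cells and B cells. Cytokines and chemokines are secreted messengers read by receptors on the receiving cell, and interferon regulatory factors turn such signals into transcription. In kidney, resident macrophages and dendritic cells lie between the tubules, lymphocytes are sparse without inflammation, and several CD antigens, among them CD9, CD44, CD59, CD63, CD93 and CD99, are made by endothelium or epithelium as well as by leukocytes.

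Against the reference, complement C1q, an MHC class I gene, CD93 and CCR1 were higher in kidney at every round, and galectin-3, CD9, 1 clone of CD44, L-plastin and immunoglobulin mu heavy chain were lower. At round 0, 19 members were above the reference (20.4%, where 19.6% of all tested features were) and 18 below (19.4% against 19%). After round 1 there were 21 above (22.6% against 16.9%) and 15 below (16.1% against 20.9%), after round 2 there were 19 above (20.4% against 16.5%) and 13 below (14% against 18.6%), and after round 3 there were 20 above (21.5% against 16.7%) and 12 below (12.9% against 18.4%). These shares lie near the background at round 0 and a few percentage points from it later. The test sets the kidney RNAs against 0 and leaves out the reference's own spread. Because the reference was amplified 2 rounds, only round 2 sets equally amplified RNAs against each other. At rounds 0, 1 and 3, a difference between kidney and reference and a difference in amplification cannot be told apart, also for calls at round 0 only. Without centring the split was 24 above and 10 below at round 0, 11 and 17 at round 1, 28 and 7 at round 2, and 23 and 7 at round 3, since the median of all features then lay at 0.65, -0.30, 0.59 and 0.32. The shares of all tested features without centring are not given, so this split shows only the dependence on centring.

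At all 4 rounds, 13 members were above the reference, where 6.63% of all tested features were, and 9 were below, where 7.89% were. Another 36 were called at no round, and IFI30 was called on both sides, counts for which no share of all tested features is given. No round mean of these 22 members changed sign without centring, although 10 of the 13 and 5 of the 9 kept all 4 calls. Leaving out 1 RNA at a time left 8 to 11 of the 13 and 7 to 9 of the 9, the fewest of the 13 being left without round 0 replicate 1 or round 3 replicate 1.

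**Figure D1:**
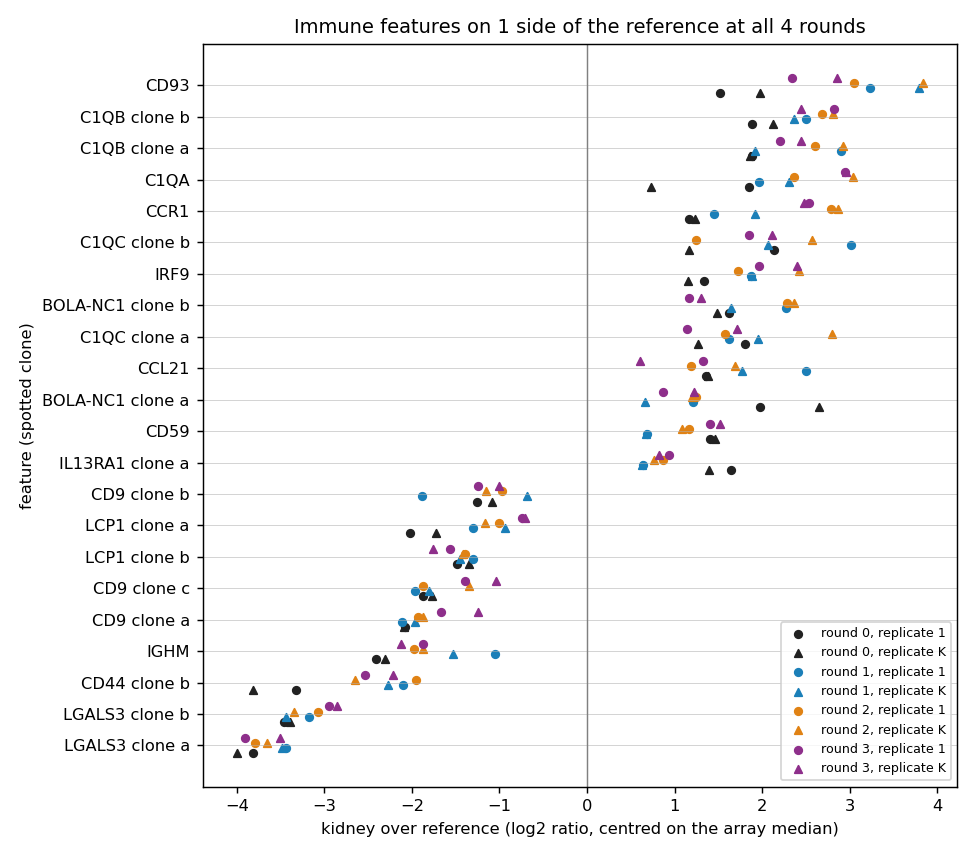
Log2 ratio of kidney over reference in each of the 8 RNAs (colour for the round, circle for replicate 1, triangle for K) for the 22 features that every round put on 1 side, ordered by their mean. CD93 reaches 3.84 and LGALS3 clone a -4.0, and no point lies across the line at 0.

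Complement C1q is the recognition molecule of the classical pathway, made largely by macrophages and built from A, B and C chains. All 5 tested C1q features were above the reference at every round. The C1QA clone read 1.85 and 0.73 at round 0, 1.97 and 2.31 at round 1, 2.37 and 3.04 at round 2, and 2.95 and 2.96 at round 3. Its lowest value was round 0 replicate K, and both round 0 RNAs lay below all 6 amplified RNAs. C1QA was above the reference at adjusted p = 0.000893 to 0.0162, and its difference from round 0 after round 3 was 1.67 (SE 0.42, adjusted p = 0.0523), which did not pass. The call at every round was lost when round 0 replicate 1 was left out.

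C1QB clone b read 1.88 and 2.12 at round 0, 2.50 and 2.36 at round 1, 2.69 and 2.81 at round 2, and 2.82 and 2.44 at round 3. C1QB clone a had round means of 1.87, 2.41, 2.77 and 2.32. The pair stayed within 0.31 of each other in every round mean, and both kept their calls in all 14 alternative analyses. C1QC clone a had round means of 1.53, 1.78, 2.19 and 1.42 and C1QC clone b of 1.65, 2.54, 1.91 and 1.98. Their calls at all rounds were kept in 9 and in 8 of the 14 alternative analyses. In round 2 replicate 1, C1QC clone b read 0.08 with the kidney in Cy5 and 2.40 in Cy3. No C1q feature was called between rounds, the smallest adjusted p against round 0 being that of C1QA above. Beside them, 14 features of other macrophage and dendritic cell genes had medians of 0.30, 0.89, 1.05 and 0.82 over rounds 0 to 3, with 5, 5, 8 and 6 features called above the reference and 2, 1, 2 and 3 below. Among them, the Fc receptor FCGR3A, with round means of 2.27, 1.5, 2.44 and 2.05, was called above at all rounds, and the actin-binding CORO1A, with -2.19, -2.01, -1.60 and -1.96, below at all rounds.

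The other complement genes tested number 6. C1R and C1S, the proteases bound to C1q, were above the reference at all rounds, with round means of 2.07, 1.72, 2.32 and 2.18 and of 1.32, 1.40, 2.22 and 2.27. C4A, which C1s cleaves, was higher after round 2 by 1.96 (SE 0.36, adjusted p = 0.0244) and after round 3 by 1.93 (SE 0.36, adjusted p = 0.026). SERPING1, the inhibitor of C1r and C1s, was lower than at round 0 in every amplified round, with -1.54 (SE 0.21, adjusted p = 0.0125) after round 1, and so was CFD, factor D of the alternative pathway, with -1.61 (SE 0.23, adjusted p = 0.014). The complement list thus held 2 lower features at each amplified round and 1 higher at rounds 2 and 3.

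MHC class I is represented, among features with 1 symbol, by 2 clones of BOLA-NC1, a non-classical class I gene, and both were above the reference at all rounds. Clone a kept that call in 8 of 14 alternative analyses and lost it without centring, and clone b kept it in all 14. Clone a read 1.98 and 2.65 at round 0, 1.21 and 0.66 at round 1, 1.24 and 1.20 at round 2, and 0.87 and 1.22 at round 3, so both round 0 RNAs lay above all 6 amplified RNAs. Its change after round 1 was -1.38 (SE 0.32, adjusted p = 0.0408), and leaving out any 1 of the 8 RNAs ended that call (adjusted p = 0.0598 to 0.163). Clone b read 1.62 and 1.48 at round 0, 2.27 and 1.65 at round 1, 2.29 and 2.36 at round 2, and 1.16 and 1.30 at round 3, with its highest values at round 2, and was not called between rounds. A further feature lists several symbols, a BOLA symbol among them, and stands for no single gene. It had round means of 1.03, 1.99, 2.15 and 1.60 and was higher than at round 0 by 0.96 (SE 0.20, adjusted p = 0.0329) after round 1 and by 1.12 (SE 0.20, adjusted p = 0.0236) after round 2, the opposite direction to clone a. Long cDNA clones of near-identical class I genes can share signal, as can those of immunoglobulin heavy chains, so these ratios may not belong to 1 gene each.

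Class II genes lay on both sides of the reference. BOLA-DRA, the class II alpha chain, read -0.48 and -2.17 at round 0, -0.14 and 0.01 at round 1, 0.94 and 0.29 at round 2, and 1.22 and 0.95 at round 3. It was below the reference at round 0 (adjusted p = 0.0357) and was higher after round 3 by 2.41 (SE 0.54, adjusted p = 0.0398), with no overlap between the round 0 and round 3 RNAs. The round 0 values are averages of unlike readings: replicate 1 read 3.50 with the kidney in Cy5 and -4.47 in Cy3, and replicate K -1.02 and -3.31. In Cy5, replicate 1 of round 0 thus lay above both RNAs of round 3, which read 1.64 and 1.25, and in Cy3 both round 0 RNAs lay below those of round 3, at 0.80 and 0.66. The call was lost with a dye term over all arrays (difference 2.41, adjusted p = 0.0747). The difference was 1.57 without round 0 replicate K, the lowest value, and 3.26 without round 0 replicate 1, and the call was kept in 1 of 8 fits without 1 RNA. BOLA-DRB3, the polymorphic beta chain, had round means of 0.44, 0.45, 0.85 and 1.18 and was above the reference at rounds 2 and 3 (adjusted p = 0.0101 and 0.00312). BOLA-DMA, which helps load peptides, had round means of -0.45, -1.23, -0.66 and -0.54 and was called nowhere. CD74, the invariant chain that accompanies class II through the cell, had round means of 0.81, 0.51, 0.51 and -0.11 and was called at round 0 only (adjusted p = 0.0158).

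Antigen processing genes outside the chosen symbols gave 25 tested features of 19 genes, of which 9, 9, 10 and 10 were above and 2, 5, 3 and 4 below the reference over rounds 0 to 3. Against round 0 a single feature changed. SEC61A1, a subunit of the translocation channel of the endoplasmic reticulum, was lower in each amplified round and fell by 1.96 (SE 0.23, adjusted p = 0.0083) after round 1. The peptide transporter genes TAP1 and TAP2 had round means of 0.88, -0.32, 0.35 and 0.11 and of 1.24, 0.10, 0.25 and 0.73 and were called at round 0 only. LGMN, an endosomal protease, had round means of 2.52, 2.69, 3.15 and 3.30 and was called above at all rounds.

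Chemokines attract leukocytes, and 12 of the 17 chemokine and chemokine receptor features could be tested. CCR1, a receptor for inflammatory CC chemokines on monocytes and other leukocytes, read 1.17 and 1.23 at round 0, 1.45 and 1.92 at round 1, 2.79 and 2.87 at round 2, and 2.54 and 2.48 at round 3. Both round 2 and both round 3 values lay above all round 0 and round 1 values. CCR1 was above the reference at all rounds in every alternative analysis. It was higher than at round 0 by 1.63 (SE 0.23, adjusted p = 0.0136) after round 2 and by 1.31 (SE 0.23, adjusted p = 0.023) after round 3. Both changes lost their call without centring. Each of those changes was kept in 4 of the 8 fits without 1 RNA (adjusted p = 0.0191 to 0.0681 and 0.0247 to 0.0962).

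CCL21, a chemokine of lymphatic vessels that draws T cells and dendritic cells, read 1.36 and 1.38 at round 0, 2.50 and 1.77 at round 1, 1.19 and 1.69 at round 2, and 1.32 and 0.61 at round 3. It was above the reference at all rounds, a call kept in 7 of 14 alternative analyses. The call was lost with scaled arrays and with a dye term over all arrays. In round 3 replicate K, CCL21 read -1.09 in Cy5 and 2.30 in Cy3. CXCL9, induced by interferon gamma, had round means of 0.04, 1.32, 0.97 and 1.36 and was called above the reference at rounds 1 and 3. CCL4 had round means of -0.33, 0.79, -0.06 and -0.56 and was called above at round 1. The round 1 values average unlike readings: 2.07 in Cy5 and -0.40 in Cy3 in replicate 1, and 0.02 and 1.47 in K. On the other side, the 2 clones of CCL26 had round means of -1.22, -1.30, -1.21 and -0.91 and of -1.0, -0.85, -1.74 and -0.71. Clone a was called below at round 1, and clone b at rounds 0 and 2. CCL5 clone a, CCL2, CCL14, CXCL3, CXCL8 clone a and CXCL16 were called in no comparison with the reference or with round 0. CXCL8 clone b, CXCR6, CXCL14 and CCL5 clones b and c lacked a value in at least 1 RNA and were not tested.

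Interleukins and their receptors gave 18 tested features of 12 genes. IL13RA1, a receptor chain for interleukin 13, had the 2 clones that stayed closest over the rounds among genes with more than 1 clone. Clone a read 1.65 and 1.39 at round 0, 0.64 and 0.63 at round 1, 0.87 and 0.76 at round 2, and 0.94 and 0.82 at round 3 and clone b had round means of 1.44, 0.41, 0.66 and 0.82, so the clones differed by at most 0.23 in a round mean. Both fell after round 1, clone a by 0.88 (SE 0.20, adjusted p = 0.0396) and clone b by 1.03 (SE 0.25, adjusted p = 0.0438), and both calls ended when any 1 RNA was left out (adjusted p = 0.0625 to 0.176 over both). Clone a was above the reference at all rounds, and clone b at rounds 0, 2 and 3. Without centring, clone a was no longer called at all rounds.

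IL17RC, a receptor chain for interleukin 17, had 3 clones. Clone c read -1.13 and -0.77 at round 0, 0.12 and 0.04 at round 1, 0.14 and 0.28 at round 2, and 0.18 and 0.64 at round 3, and both round 0 values lay below all others. It was higher than at round 0 in each amplified round, by 1.03 (SE 0.25, adjusted p = 0.0438), 1.16 (SE 0.25, adjusted p = 0.0363) and 1.36 (SE 0.25, adjusted p = 0.0258). Clones a and b had round means of 0.44, 0.77, 0.28 and 1.58 and of -0.23, 0.28, 0.73 and 1.06 and were not called against round 0. The clone c calls were kept in 0, 2 and 4 of the 8 fits without 1 RNA, with adjusted p up to 0.183, 0.154 and 0.108. Its round 0 replicate K value is from Cy5 alone.

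IL10RB, the chain shared by the receptors of interleukin 10 and related cytokines, gave clones with different calls. Clone b read 0.96 and 0.56 at round 0, 0.17 and 0.33 at round 1, -0.18 and -0.17 at round 2, and -0.12 and -0.20 at round 3 and fell by 0.94 (SE 0.22, adjusted p = 0.0447) after round 2 and by 0.92 (SE 0.22, adjusted p = 0.0453) after round 3. Clone a had round means of -0.38, 0.02, 0.64 and 1.30, with a difference after round 3 of 1.68 (SE 0.54, adjusted p = 0.0896). The clone b calls were lost without any 1 RNA (adjusted p = 0.0576 to 0.192 over both rounds). IL16, a ligand of CD4, had clone means of -0.94, -0.21, -0.22 and -0.22 and of -0.43, -0.08, -0.10 and 0.52, and IL18BP, which traps interleukin 18, of 0.86, 0.33, -0.44 and -0.31 and of -0.24, 1.23, 0.30 and 0.53. Neither gene was called against round 0. The receptor genes IL6R, IL12RB1, IL17RA, IL18RAP, IL21R and IL22RA1 and the antagonist IL1RN were not called against round 0 either. IL1RN, IL22RA1 and IL16 clone a lay below the reference at round 0 (adjusted p = 0.0231, 0.0208 and 0.0163). Their round 0 values average unlike readings. In replicate 1, IL16 clone a read -2.9 in Cy5 and 0.55 in Cy3, and IL22RA1 -1.88 and -0.25. In replicate K, IL1RN read 0.01 in Cy5 and -1.19 in Cy3.

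Of 40 tested features of cytokine signalling and NF-kB genes outside the chosen symbols, 1, 0 and 0 were higher and 3, 5 and 3 lower than at round 0 after rounds 1, 2 and 3. LIFR, the receptor of leukaemia inhibitory factor, had round means of 2.70, 0.34, 0.56 and 0.80 and fell by 2.37 (SE 0.22, adjusted p = 0.00629) after round 1. The median difference of this list was -0.23, -0.22 and -0.24, where the members' medians were 0.25, 0.27 and 0.45 and those of all tested features -0.03, 0.01 and 0.

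Of the interferon receptors and induced genes, IFI30 alone was called against round 0. IFNAR2, a chain of the type I interferon receptor, read -0.24 and -1.16 at round 0, -1.79 and -2.49 at round 1, -1.57 and -1.79 at round 2, and -1.16 and -1.48 at round 3, and its difference after round 1 was -1.44 (SE 0.39, adjusted p = 0.0583). It was below the reference at rounds 1, 2 and 3, as was IFNGR2, a chain of the interferon gamma receptor, with round means of -0.30, -0.85, -0.61 and -0.82. IFI30, a lysosomal thiol reductase that prepares antigens for class II, read -0.84 and -0.47 at round 0, -0.09 and 0.45 at round 1, 0.74 and 1.14 at round 2, and 0.27 and 0.40 at round 3. It was below the reference at round 0 and above it at round 2, and higher at round 2 than at round 0 by 1.60 (SE 0.28, adjusted p = 0.0236), a call kept in 4 of 8 fits without 1 RNA (adjusted p up to 0.105). The IFI30 call against round 0 was also lost without centring. IFI6, an interferon-induced mitochondrial protein, had round means of 0.95, -0.21, -0.28 and -0.28, was above the reference at round 0 (adjusted p = 0.0286) and differed after round 3 by -1.23 (SE 0.36, adjusted p = 0.0767). IFI35 was not called.

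IRF8, a transcription factor of monocytes, dendritic cells and B cells, read -0.07 and -0.44 at round 0, 1.91 and 1.84 at round 1, 0.91 and 1.40 at round 2, and 0.43 and 0.69 at round 3. All 6 amplified RNAs lay above both round 0 RNAs, the 2 of round 1 highest. IRF8 was higher than at round 0 by 2.13 (SE 0.26, adjusted p = 0.00901) after round 1 and by 1.42 (SE 0.26, adjusted p = 0.026) after round 2, and by 0.82 (SE 0.26, adjusted p = 0.0894) after round 3, which did not pass. Both calls were lost without centring. The first call was kept in 6 of 8 fits without 1 RNA, being lost without round 0 replicate K or round 1 replicate K (adjusted p up to 0.0526), and the second in 4 of 8 (adjusted p up to 0.114). IRF9, part of the complex that answers type I interferon, read 1.34 and 1.15 at round 0, 1.87 and 1.89 at round 1, 1.73 and 2.42 at round 2, and 1.97 and 2.40 at round 3 and was above the reference at all rounds. IRF7 clone a had round means of 0.56, 1.23, -0.61 and 1.01 and clone b of -0.50, 0.24, -0.46 and 1.73, while IRF1 and IRF3 had -0.36, 0.60, -0.88 and 0.12 and -0.11, 0.10, 0.34 and 0.01. None of these was called against round 0.

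Other interferon genes, from a list of signalling and response genes, gave 20 tested features of 17 genes, of which 1, 0 and 0 were higher and 1, 2 and 2 lower than at round 0 over rounds 1 to 3. PARP14 fell by 1.70 (SE 0.20, adjusted p = 0.0083) after round 1. SOCS1, a feedback inhibitor of cytokine receptors, fell by 1.39 (SE 0.32, adjusted p = 0.0412) after round 2. JAK1 was the feature higher after round 1, by 1.54 (SE 0.24, adjusted p = 0.0167). JAK1 and SOCS1 are also on the list of cytokine signalling genes, so both lists count these same features. RSAD2 and MX1, antiviral proteins induced by interferon, had round means of 4.52, 3.23, 3.39 and 3.38 and of 1.59, 1.38, 1.45 and 1.29, above the reference at all rounds.

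The CD antigens gave 32 tested features of 24 genes. Galectin-3 and CD9 are given with them as surface or lectin genes far below the reference. LGALS3 encodes galectin-3, a lectin of macrophages and of the collecting duct. LGALS3 clone a read -3.82 and -4.0 at round 0, -3.44 and -3.48 at round 1, -3.79 and -3.65 at round 2, and -3.91 and -3.51 at round 3. LGALS3 clone b read -3.46 and -3.39 at round 0, -3.17 and -3.44 at round 1, -3.07 and -3.35 at round 2, and -2.95 and -2.86 at round 3. These 16 values were the same in sign and lay between -4.0 and -2.86. In limma's main fit, clone a had adjusted p = 6.74e-05 to 0.000106 against the reference over the 4 rounds. Both clones were also below the reference in every alternative analysis.

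CD9, a tetraspanin of platelets, epithelium and endothelium, had 3 clones, all below the reference at all rounds. Without centring, clones b and c were no longer called at all rounds. Clone a read -2.08 and -2.09 at round 0, -2.11 and -1.96 at round 1, -1.93 and -1.87 at round 2, and -1.67 and -1.24 at round 3. Clones b and c had round means of -1.17, -1.28, -1.06 and -1.12 and of -1.82, -1.89, -1.61 and -1.22. The clones differed by up to 0.92 in a round mean, and none was called between rounds. LCP1, the leukocyte actin-bundling protein L-plastin, was below the reference at all rounds in both clones. Clone a kept that call in 11 and clone b in 13 of 14 alternative analyses, and both lost it without centring. Clone a read -2.02 and -1.72 at round 0, -1.30 and -0.94 at round 1, -1.01 and -1.16 at round 2, and -0.74 and -0.71 at round 3. It was higher after round 3 by 1.14 (SE 0.23, adjusted p = 0.031), with no overlap of the 2 rounds, a call lost without centring. Clone b had round means of -1.41, -1.38, -1.41 and -1.67 and was not called between rounds. The clone a call was kept in 2 of 8 fits without 1 RNA (adjusted p up to 0.132).

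CD44, the hyaluronan receptor of leukocytes and many other cells, had the largest change of any member called higher against round 0, in 1 of its 2 clones. Clone a read -3.18 and -3.33 at round 0, -0.15 and -0.20 at round 1, -0.25 and -1.20 at round 2, and -0.17 and 0.88 at round 3. Both round 0 values lay below every amplified value, the nearest being -1.20. Clone a was higher by 3.08 (SE 0.44, adjusted p = 0.0134), 2.53 (SE 0.44, adjusted p = 0.0223) and 3.61 (SE 0.44, adjusted p = 0.00922) after rounds 1, 2 and 3, and was not called against the reference in any amplified round. Of all 32 calls against round 0, that of clone a after round 3 was the sole one kept in all 8 fits without 1 RNA (adjusted p = 0.0174 to 0.0496). Its round 3 replicate K value is from Cy3 alone, and in round 1 replicate K it read -1.85 in Cy5 and 1.44 in Cy3. Clone b read -3.32 and -3.82 at round 0, -2.10 and -2.27 at round 1, -1.95 and -2.65 at round 2, and -2.54 and -2.22 at round 3, stayed below the reference at all rounds, and was higher by 1.38 (SE 0.32, adjusted p = 0.0406) after round 1. The clones differed by 0.31 at round 0 and by 2.74 after round 3.

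CD93, an endothelial and myeloid surface protein, read 1.52 and 1.98 at round 0, 3.23 and 3.79 at round 1, 3.05 and 3.84 at round 2, and 2.34 and 2.86 at round 3. All 6 amplified RNAs lay above both round 0 RNAs. It was higher than at round 0 by 1.76 (SE 0.38, adjusted p = 0.0356) after round 1 and 1.69 (SE 0.38, adjusted p = 0.0396) after round 2. Both calls were lost without centring. Leaving out 1 RNA kept 2 and 0 of the 8 fits for these calls (adjusted p up to 0.143 and 0.163). Of 11 other endothelial features, 1, 2 and 1 were higher and 2, 2 and 2 lower over rounds 1 to 3, with list medians of 2.34, 1.74, 2.00 and 2.00 over rounds 0 to 3. Their part in the CD93 values was not tested.

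CD63, a tetraspanin of lysosomes and secretory granules, read -2.04 and -1.09 at round 0, -0.31 and -0.15 at round 1, -0.05 and -0.15 at round 2, and -0.03 and 0.19 at round 3. It was higher in each amplified round, by 1.33 (SE 0.33, adjusted p = 0.0474), 1.46 (SE 0.33, adjusted p = 0.0411) and 1.64 (SE 0.33, adjusted p = 0.0315). The round 0 replicates were the farthest apart of the 4 rounds, and the size moved with them: over the fits without 1 RNA it ran from 0.86 to 1.81, 0.98 to 1.93 and 1.17 to 2.12, and each call was kept in 1 of 8 fits. The round 0 value of replicate K is from Cy5 alone.

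Members of the same class also fell. CD99, an adhesion molecule of leukocytes and endothelium, fell in clone a after round 1, with values of -0.06 and -0.13 at round 0, -0.76 and -1.22 at round 1, -0.92 and -0.97 at round 2, and -0.87 and -0.86 at round 3 and a difference of -0.90 (SE 0.22, adjusted p = 0.0482), while clone b had round means of -0.28, -0.73, -0.40 and -0.33 and was not called against round 0. CD164, a sialomucin, read 1.36 and 1.26 at round 0, 0.80 and 0.37 at round 1, 0.00 and 0.15 at round 2, and 0.33 and -0.09 at round 3 in clone a and fell by 1.24 (SE 0.25, adjusted p = 0.0335) after round 2 and by 1.19 (SE 0.25, adjusted p = 0.0355) after round 3. CD164 clone b, with round means of -0.58, 0.29, -0.35 and 0.04, was not called. CD59, which blocks the terminal complement complex on host cells, read 1.40 and 1.46 at round 0, 0.68 and 0.67 at round 1, 1.16 and 1.08 at round 2, and 1.41 and 1.52 at round 3. Against round 0 it fell by 0.75 (SE 0.19, adjusted p = 0.0468) after round 1 and was not called later. CD59 was above the reference at all rounds, though not all of these calls were kept without centring. The CD99 and CD59 calls were lost without any 1 RNA (adjusted p = 0.0506 to 0.179 over both), and those of CD164 were kept in 4 and 2 of 8 fits (adjusted p up to 0.132 and 0.143).

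CD antigens of macrophages and dendritic cells gave few calls against the reference. CD163, the haemoglobin scavenger receptor, had round means of -0.66, -0.23, 0.06 and 0.48. CD68, a lysosomal protein of macrophages, had 0.61, 0.83, 1.16 and 1.72, and the lipopolysaccharide receptor CD14 had -0.37, 0.70, 1.5 and 0.68 in clone a and 0.55, -0.57, -0.05 and -0.35 in clone b. The lectin CD209 had 0.12, 1.22, 0.19 and 1.07 and 0.14, 1.05, 0.81 and -0.19 in its clones. None of these was called against the reference at any round. Among further CD antigens, not all of these cells, CD300H was called above it at round 3, CD80 at round 1, CD101 at round 2 and CD81 at round 3, each once. In round 2 replicate 1, CD101 read 3.25 in Cy5 and -0.34 in Cy3. The CD80 value of round 1 replicate 1 is from Cy3 alone, and K read 0.26 in Cy5 and 3.83 in Cy3. The CD300H value of round 3 replicate 1 is from Cy5 alone.

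T cell and natural killer cell antigens gave few calls. CD8A, with round means of 0.07, -0.35, -0.21 and -0.40, CD247, with -0.21, -0.65, -0.32 and -0.73, and CD244, with -0.61, -0.48, 0.57 and -0.36, were called nowhere, and CD3D, with 0.55, -0.61, 2.23 and 1.93, was called above the reference at round 2 (adjusted p = 0.047), where its replicates read 3.71 and 0.76. CD3E lacked a value in 1 RNA. Of 6 other T and natural killer cell features, 0, 2, 2 and 1 were above the reference over rounds 0 to 3 and 3, 0, 0 and 0 below. CD52 was called below the reference at round 1. CD47, CD48 in both clones and CD109, which are not particular to these cells, were called nowhere. CD109 read -1.38 and 2.54 in the replicates of round 1.

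B cell genes were represented by immunoglobulin heavy chains, IKZF3 and CD72. CD72 had round means of -0.36, 0.95, 0.01 and 0.12 and was called nowhere. IGHM, the mu heavy chain, read -2.41 and -2.31 at round 0, -1.05 and -1.53 at round 1, -1.98 and -1.87 at round 2, and -1.87 and -2.12 at round 3. It was below the reference at all rounds in every alternative analysis and higher after round 1 by 1.07 (SE 0.24, adjusted p = 0.0389), a call lost without any 1 RNA (adjusted p = 0.059 to 0.15). IGHE, the epsilon heavy chain, read -0.52 and -0.73 at round 0, 1.54 and 0.74 at round 1, 0.23 and -0.13 at round 2, and 0.06 and -0.69 at round 3 in clone a, higher after round 1 by 1.76 (SE 0.38, adjusted p = 0.0347). Both round 1 values are from Cy5 alone, in which the round 0 RNAs read -0.45 and -0.57. That call was kept in 2 of 8 fits without 1 RNA, and without centring the difference was -0.03. IGHE clone b, with round means of -1.53, 1.22, 1.53 and 0.09, was not called.

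IKZF3 encodes Aiolos, a zinc-finger transcription factor of lymphocytes, and its 2 clones were called in opposite directions. Clone a read -0.32 and -1.27 at round 0, 0.77 and 1.07 at round 1, 0.18 and -0.38 at round 2, and 0.58 and 0.84 at round 3, and clone b read 3.90 and 3.27 at round 0, -0.44 and 1.54 at round 1, -0.67 and -0.54 at round 2, and -0.20 and 1.68 at round 3. At round 0 the clones were 4.38 apart, and after round 3 they were 0.03 apart. Both round 0 values of clone b come from the Cy5 orientation alone, whereas the amplified values average both dyes, so the fall of clone b and the distance at round 0 compare unlike sets of dyes. In Cy5 alone, clone b read -2.33 and -0.87 at round 2. Clone a read 0.98 in Cy5 and -1.63 in Cy3 in round 0 replicate 1, its round 1 replicate 1 value is from Cy5 alone, and its call was lost with a dye term over all arrays (adjusted p = 0.102). Clone a was higher after round 1 by 1.72 (SE 0.37, adjusted p = 0.0362), and clone b fell by 4.18 (SE 0.81, adjusted p = 0.0293) after round 2, the calls being kept in 1 and in 4 of 8 fits without 1 RNA. MZB1, the sole B and plasma cell gene tested outside the chosen symbols, was not called.

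**Figure D2:**
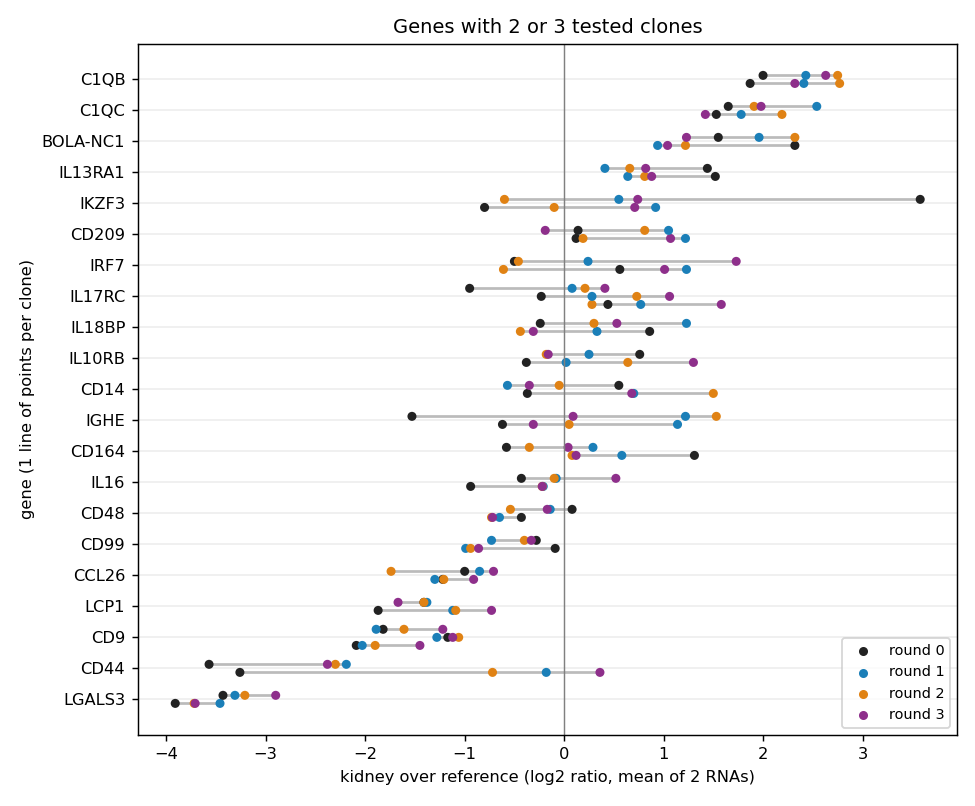
Round means of the log2 ratio of kidney over reference (2 RNAs each, colour for the round) for the 21 genes with more than 1 tested clone, each clone on a line of its own. The clones of C1QB and of IL13RA1 span overlapping ranges and all clones of LGALS3 and CD9 lie below 0, whereas those of IKZF3 lie 4.38 apart at round 0 and those of CD44 2.74 apart after round 3.

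Over these 21 genes and 44 clones, 9 genes (42.9%) had every round mean of every clone on the same side: BOLA-NC1, C1QB, C1QC, CCL26, CD9, CD99, IL13RA1, LCP1 and LGALS3. The same held for 216 of 884 other genes with more than 1 tested clone (24.4%). The median distance between the clones of a gene at round 0 was 0.51 for the members and 0.45 for the other genes. Clones of 1 gene share its transcripts, so they are not replicates.

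Taking all changes against round 0, more members rose than fell at each amplified round. After round 1, 9 members were higher (9.68%, against 5.4% of all tested features) and 5 lower (5.38% against 7.87%). After round 2, 7 were higher (7.53% against 4.39%) and 3 lower (3.23% against 6.79%), and after round 3, 6 were higher (6.45% against 4.57%) and 2 lower (2.15% against 7.04%). In all, 21 features of 18 genes were called at least once, 13 of them higher and 8 lower. CD44 clone a, CD63 and IL17RC clone c were higher at all 3 amplified rounds. No share of all tested features is given for these 2 counts, so they cannot be read as particular to the members. These comparisons share the 2 round 0 RNAs. The direction is relative to the array median: without centring, the median of all features moved by -1.04, -0.08 and -0.34, and the calls were 1 higher and 18 lower after round 1, none after round 2, and 2 higher after round 3. The members' median difference without centring was -0.76, 0.23 and 0.11. Shares of all tested features are not given for the calls without centring.

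**Figure D3:**
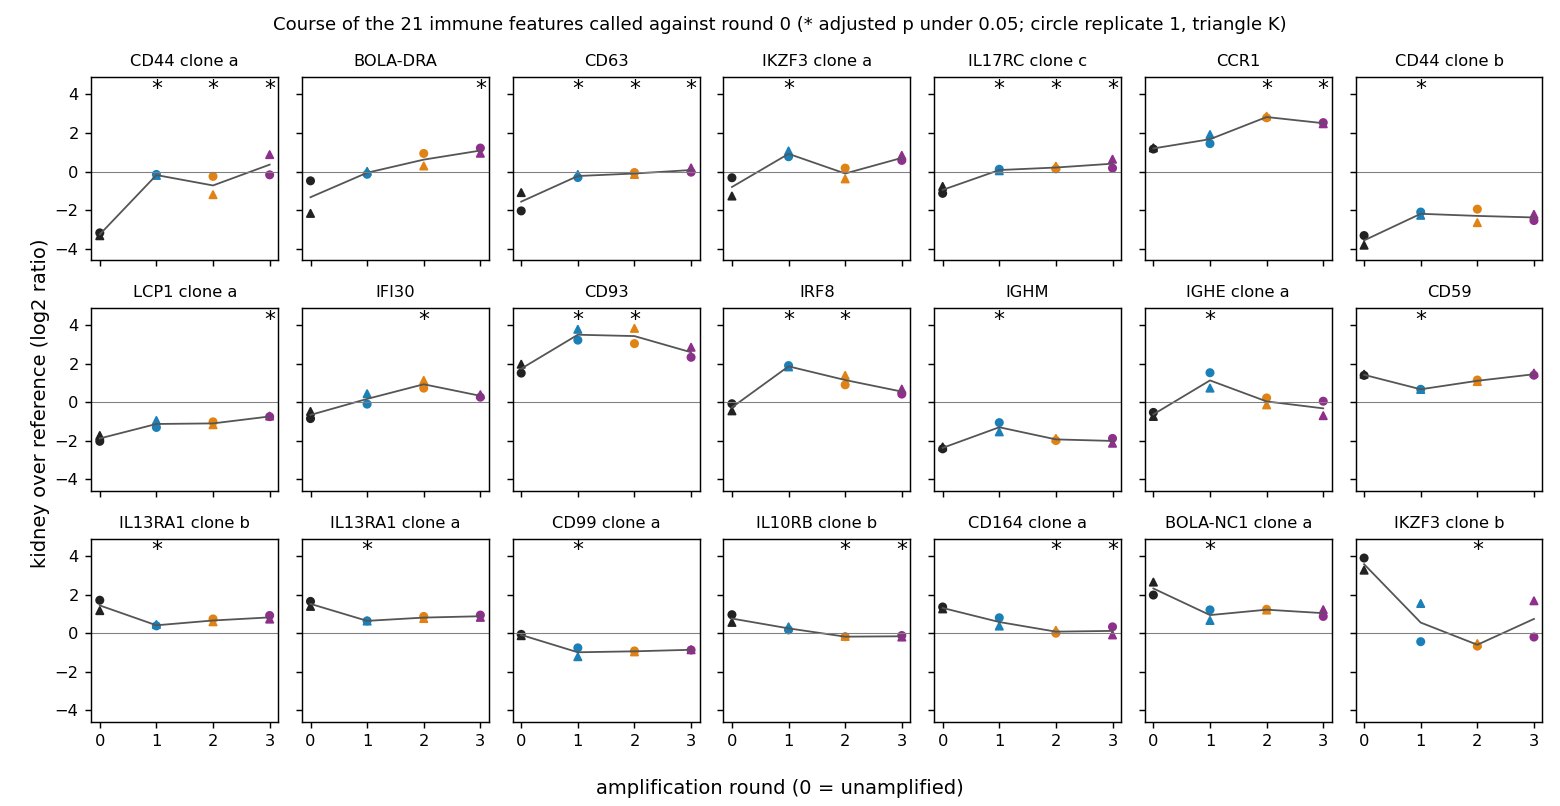
Course over amplification rounds (x axis) of the log2 ratio of kidney over reference (y axis) for the 21 called members, with the line through the round means, a circle for replicate 1, a triangle for K and a star where limma's adjusted p against round 0 is under 0.05. CD44 clone a climbs from -3.26 to 0.36, and IKZF3 clone b falls from 3.58 to -0.60 at round 2.

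In each fit without 1 RNA most calls against round 0 were lost, also where that RNA belonged to neither of the compared rounds. The CD59 call after round 1 was lost in all 8 such fits, with its difference between -0.79 and -0.72. Of the 32 calls against round 0, 4 were kept without round 0 replicate 1 and 4 without round 0 replicate K, 12 and 11 without round 1 replicate 1 and K, 7 without either RNA of round 2 and 11 without either of round 3. Each such fit also has fewer residual degrees of freedom. Without centring, 8 of the 32 calls were kept. These were the rises of CD44 clone a after rounds 1 and 3 and of CD63 after round 3. The others were the falls after round 1 of CD99 clone a, CD59, BOLA-NC1 clone a and both IL13RA1 clones. A test for any difference among the rounds called 3 members (3.23%, against 7.59% of all tested features): CD44 clone a (adjusted p = 0.0233), IRF8 (0.0253) and CCR1 (0.0278).

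**Figure D4:**
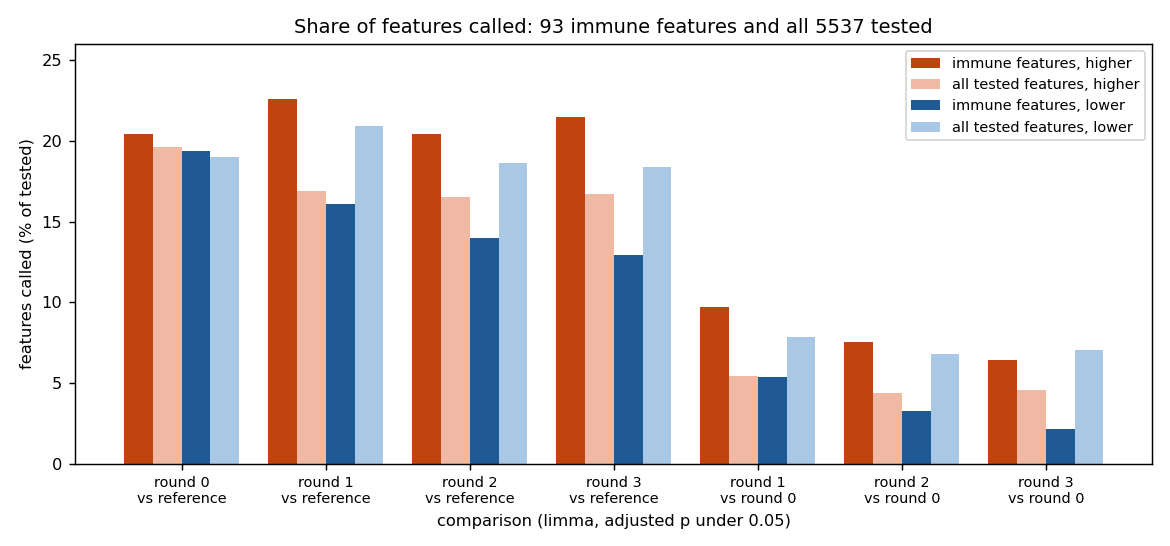
Share of features called by limma (adjusted p under 0.05) in each comparison, higher in red and lower in blue, dark for the 93 immune features and pale for all 5537 tested features. Against round 0 after round 3, 6.45% of the immune features are higher and 2.15% lower, where 4.57% and 7.04% of all tested features are.

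Between amplified rounds no member passed limma's adjusted threshold. From round 1 to 2 the count was 0, as over all tested features (0%), with 10 members at an unadjusted p under 0.05, and the smallest p belonged to CCR1 at 1.15 (SE 0.23, adjusted p = 0.323), CD101 at 1.13 (SE 0.35, adjusted p = 0.366) and IL21R at 2.14 (SE 0.71, adjusted p = 0.383). From round 1 to 3 it was 0, where 0.289% of all features were called, with 14 members at an unadjusted p under 0.05. The nearest were IRF8 at -1.31 (SE 0.26, adjusted p = 0.0751), CCL4 at -1.35 (SE 0.31, adjusted p = 0.0925) and CD59 at 0.79 (SE 0.19, adjusted p = 0.0978). From round 2 to 3 it was again 0 (0% of all features), with 3 members at an unadjusted p under 0.05, led by BOLA-NC1 clone b at -1.09 (SE 0.26, adjusted p = 0.516), IRF7 clone b at 2.19 (SE 0.79, adjusted p = 0.655) and CD44 clone a at 1.08 (SE 0.44, adjusted p = 0.687). A fit of all arrays with a dye term called 1, 5 and 0 members in these comparisons.

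The dye swap gives a second reading of each RNA. For the 22 members called on 1 side at all rounds, both dyes lay on the same side in 168 of 173 RNA readings (97.1%). For the 21 members called against round 0 the share was 119 of 159 (74.8%), a further 9 values resting on 1 dye, and for the 36 never called against the reference it was 133 of 257 (51.8%). Over all 93 it was 465 of 689 (67.5%). The 22 and the 36 were chosen by averages of these same readings, so their shares are no independent check. For the 21, a shared side of the reference does not bear on a change between rounds. Members called at all rounds had ratios in nearly all arrays, 19 of the 22 on all 16, while 58 of the 93 tested members had a value on every array.

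**Figure D5:**
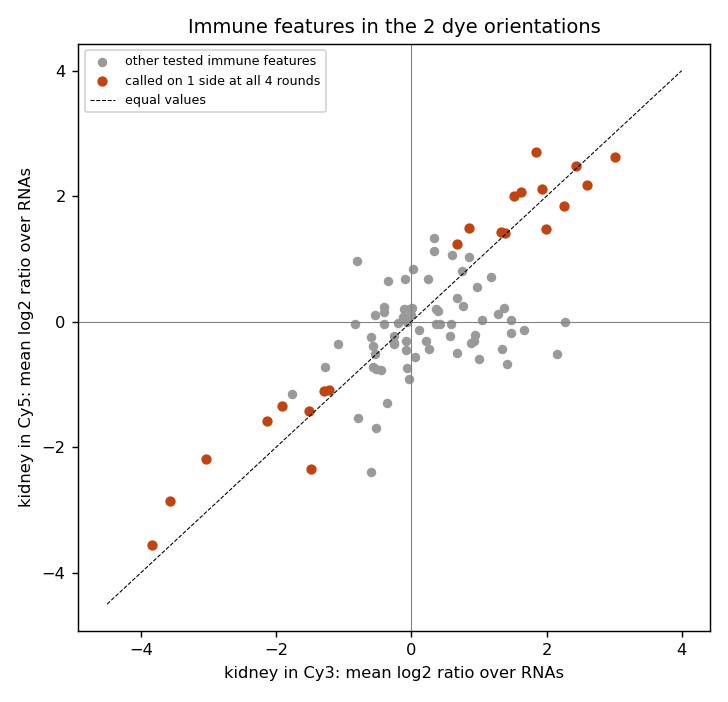
Mean log2 ratio over the RNAs with the kidney in Cy3 (x axis) against the kidney in Cy5 (y axis) for the 93 tested immune features, red for the 22 features called above or called below at every round, with a dashed line of equal values. The 22 red points lie along the line, and the grey points scatter around 0. The red points were chosen by averages of these same readings.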

How the data were processed

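Log2 ratios of kidney and reference intensity were used as the authors deposited them, 1 column per array, on custom 2-colour cDNA arrays. How the slides were scanned, background-corrected and normalized is not stated in the labels. The deposited column of round 1, replicate 1, kidney in Cy3, mixes scales and is recorded as a score: 52 of its numbers are too large for log2 ratios and were set to missing, and its remaining numbers, in the range of the other columns, entered the fit as log2 ratios. No intensities were used, so dim spots could not be filtered. Values beyond 10 in size, on every array mostly 1 repeated number, were set to missing. Ratios with the kidney in Cy3 were turned, duplicate spots averaged, arrays centred on the median of listed features, and the 2 arrays of a dye swap averaged, so that an RNA is 1 replicate.

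Means of the 4 rounds were fitted with limma 3.58.1 (R 4.3.3, the package data.table at version 1.17.8; lmFit and eBayes; 4 residual degrees of freedom, 2.4 prior), with Benjamini-Hochberg adjustment over 5537 features and a threshold of 0.05. A call is an adjusted p under 0.05. The procedure was tested on simulated data. Residuals of same-numbered RNAs correlated above 0.1 in 1 of 6 pairs of rounds, too few for the rule that every pair does, so the numbers 1 and K were not taken to pair samples. Clones of a gene are lettered by position on the array. Symbols of all 100 features were the same in RefSeq's list of genes.

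Named were all members called between rounds, the 3 smallest p where fewer than 5 were called, the 5 members farthest above and below the reference at each round, all genes with more than 1 clone, and some of the strongest genes of fixed pathway and cell type lists. Members and lists were chosen with earlier results of these data known. Alternatives were no centring, scaling of arrays, a dye term over all arrays, a replicate block, a fit of the compared rounds alone, leaving out the round 1, replicate 1, Cy3 array, all features whether listed or not, and leaving out each RNA.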

Additional observations from a re-analysis of the deposited data

How the results depend on the processing

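Of the 14, 10 and 8 immune features called after rounds 1, 2 and 3 against round 0, the replicate block gave 10, 9 and 9, and a fit of the compared rounds alone gave 0, 2 and 2. Without the round 1, replicate 1, Cy3 array the counts were 5, 6 and 4, and over all features, listed or not, 6, 7 and 6. Arrays scaled to 1 median absolute deviation gave 15, 16 and 15, and all arrays with a dye term 20, 20 and 23, where the 2 arrays of an RNA both enter. Without centring the counts were 19, 0 and 2. Leaving out 1 RNA gave 0 to 4, 0 to 7 and 1 to 6. The dye term also gave 1 call between rounds 1 and 2 and 5 between rounds 1 and 3, where the other settings gave 0. Against the reference, where 37, 36, 32 and 32 were called at rounds 0 to 3, leaving out 1 RNA gave 23 to 38, 25 to 37, 21 to 32 and 18 to 33. For any difference among rounds (3 called), the scaled arrays gave 8, the dye term 24, and leaving out 1 RNA 0 to 2. Above and below the reference at all rounds (13 and 9), leaving out 1 RNA gave 8 to 11 and 7 to 10, and no centring left 5 below. Of the 32 differences named against round 0, the call was kept in 8 without centring, 32 with scaled arrays, 30 with the dye term, 25 with the replicate block, 4 with the compared rounds alone, 15 without that array and 19 over all features. The sole reversal was IGHE clone a after round 1, at -0.03 without centring. The cause of these shifts was not tested. Fits that leave out an RNA assume that the lone RNA of a round varies like the others. Depth and signal over background are unknown, since only ratios were used.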

Other observations

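Of the 3 features that list several symbols, and so have no single gene, the one with a BOLA symbol is given with MHC class I. Another had log2 ratios of kidney over reference of 1.91 ± 0.08, 2.11 ± 0.57, 2.35 ± 0.12 and 2.49 ± 0.05 (SD, n = 2) over rounds 0 to 3, and the last had 0.28 ± 0.05, -0.32 ± 0.27, 0.22 ± 0.08 and 0.56 ± 0.39, and neither of these was called against round 0.

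Of the 7 features without a value in every RNA, CXCR6, a chemokine receptor of T cells, read -0.56 and -1.56 at round 0, 1.24 in round 1 replicate K, 0.98 and 2.55 at round 2, and 2.20 and 3.08 at round 3. All 5 amplified values lay above both round 0 values, with no test. The round 0 values of CXCR6 average unlike readings: 0.68 in Cy5 and -1.8 in Cy3 in replicate 1, and 0.77 and -3.9 in K. Its round 1 value is from Cy5 alone. CD3E, a T cell receptor subunit, read 1.75 and 0.99 at round 0 and between -0.23 and 2.07 in the 5 amplified RNAs that had a value.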
